A study of Mus musculus with 91 samples.

Results

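The 150 genes with the highest level in D2 libraries relative to D1 libraries were described across time of day, sex and replicate letter in ribosome-bound mRNA of the mouse nucleus accumbens. They were chosen by measured values: the mean log2 CPM (a gene's counts relative to the library's TMM-scaled total, with a prior count of 2) over the D2 libraries minus that over the D1 libraries, among genes with a mean of at least 5 CPM. The file held 14355 genes, of which 11810 passed that floor, and the 150 of largest difference were taken. The genes are known here only by Ensembl identifier, because no table at hand pairs these identifiers with gene names. The label of D2 enrichment was therefore checked against no marker gene, and the members are called genes higher in D2 libraries, not genes of a cell type.

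Neurons that carry the dopamine D2 receptor form one of the main classes of projection neuron in the nucleus accumbens, a ventral striatal region involved in reward and motivation. They typically also make the adenosine A2a receptor and the opioid peptide precursor proenkephalin, whereas D1 neurons make the dopamine D1 receptor and the peptide precursors of dynorphin and substance P. In RiboTag mice, cells that express Cre make a hemagglutinin-tagged form of the ribosomal protein Rpl22, so an antibody to the tag pulls down their ribosomes with the mRNA being translated. Such a pull-down also carries some mRNA of untagged cells, and the A2a receptor gene, whose promoter drives Cre in the D2 line, is active in some cells other than neurons, among them cells of blood vessels. How much of each cell type the members' mRNA came from was not tested.

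The D1 libraries came from Drd1-Cre mice and the D2 libraries from A2a-Cre mice, each crossed to RiboTag mice, so both groups carried a Cre and the tagged Rpl22. Mouse line and cell type cannot be told apart. Males and females over 10 weeks old were kept on 12 h of light and 12 h of dark and sampled at ZT 2, 6, 10, 14, 18 and 22, where ZT counts hours from lights on. Nucleus accumbens tissue of 2 mice was pooled for each sample. There were 45 D1 libraries, 23 from females and 22 from males, and 46 D2 libraries, 23 from each sex, in 24 groups of 3 or 4. Each title also holds a letter from A to E whose meaning the labels do not give, with E on 1 D1 library only. The labels do not say whether libraries of a group came from separate animals, so p-values measure the spread between these samples. Total counts ran from 6872165 to 24665262 per library. The mean total of D2 libraries was 19727033 for letter A, 16241681 for B, 11336342 for C and 10904585 for D. In D1 libraries the letter means lay closer together, from 15452263 for A to 11833152 for D. 3 D1 male libraries stood apart by the number of genes with a count of 0: ZT 22 of letter B (722 genes), ZT 10 of letter B (789) and ZT 18 of letter D (205), against at most 3 in any other library. Without them 143 of the 150 members would still have been chosen, but the list depended on the floor on low genes: 62 members stayed with a floor of 1 CPM and 86 with a floor of 10 CPM.

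The differences that chose the members are a description and were not tested. They ranged from 0.66 to 5.43 on the log2 scale, with a median of 1.05. Of the 150 members, 82 exceeded 1 and 14 exceeded 2, so most of the list differed by a modest factor. The ratio of the mean CPM in D2 to that in D1 had a median of 2.08 and ran from 1.49 to 50.8. Mean levels in D2 libraries ran from 6.17 to 3682 CPM with a median of 15.3, and 11 members had 100 CPM or more. Mean levels in D1 libraries had a median of 6.86 CPM. Only 4 members had a D1 mean under 1 CPM and 46 had one under 5 CPM, so most members were also measured in D1 libraries. 19 members had a count of 0 in at least 1 D1 library, and 2 without the 3 D1 libraries that stood apart. In bulk samples like these, fewer cells of a type and less RNA per cell cannot be told apart.

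**Figure D1:**
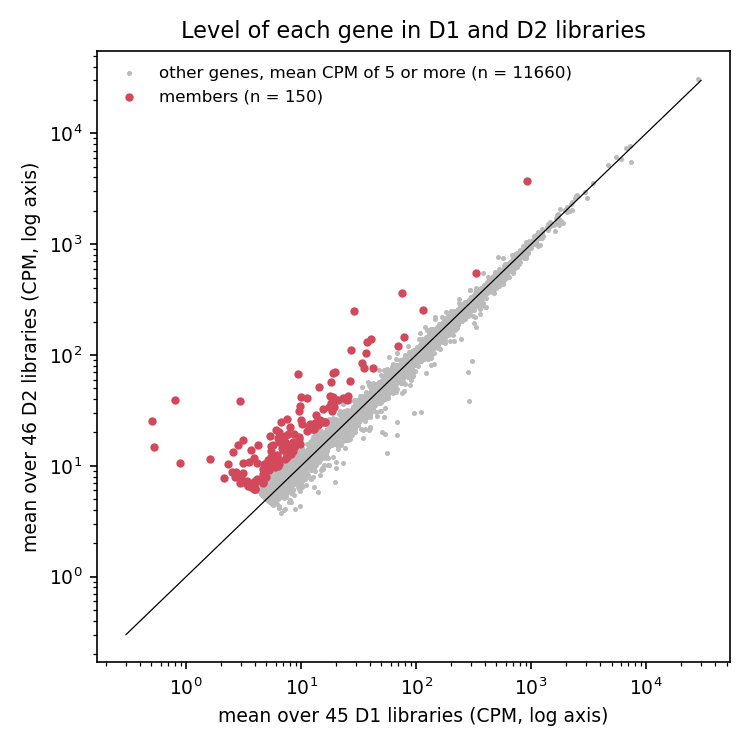
Mean CPM of each gene over 45 D1 libraries (x, log axis) and 46 D2 libraries (y, log axis), with the 150 members in red, the other genes with a mean of at least 5 CPM in grey, and the line of equal level in black. The members lie above the line by construction, and 4 of them lie left of 1 CPM in D1.

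The groups overlapped for most members. Every D2 library lay above every D1 library in 25 of the 150 members (16.7%), against 0.188% of all genes; the rule used this contrast, and nothing is read from the count, which was 40 without the 3 D1 libraries. The member of largest difference, ENSMUSG00000073940, had 0.501 ± 1.09 CPM in D1 libraries (SD, n = 45) and 25.5 ± 21.9 CPM in D2 libraries (SD, n = 46). Its D1 mean was 0.359 ± 0.287 CPM (SD, n = 42) without the 3 libraries, since the highest D1 value, 7.41 CPM, lay in the male ZT 10 library of letter B. The next in rank, ENSMUSG00000052305, had 0.806 ± 0.470 CPM (SD, n = 45) in D1 and 38.9 ± 21.5 CPM (SD, n = 46) in D2. Both varied widely within D2. In D2 libraries ENSMUSG00000073940 ranged from 4.12 CPM to 92.1 CPM. ENSMUSG00000052305 ranged from 11.7 to 105.9 CPM. The sum of the 3 top-ranked members was highest in the D2 male ZT2 library of letter A, at 231.1 CPM, and next in the D2 male ZT14 library of letter B, at 183.7 CPM.

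At the edge of the list the differences were continuous. The members ranked 148, 149 and 150 had differences of 0.68, 0.67 and 0.66371, and the genes just outside, ranked 151 to 153, had 0.66366, 0.66 and 0.66. The gene at rank 151 had a mean of 95.3 CPM in D2 and 58.7 CPM in D1, a higher level than the member at rank 150, with 39.0 and 25.1 CPM. The last places in the list thus rest on very small differences.

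The members varied more between D2 libraries than genes in general did. The median SD over D2 libraries was 0.38 on the log2 scale, against 0.27 over all genes with at least 5 CPM, and after the mean of each letter was removed it was 0.24 against 0.16. The 150 genes of lowest D2 minus D1 difference had medians of 0.36 and 0.24, so this spread was not particular to the members. In D1 libraries the median SD of the members was 0.42, or 0.35 without the 3 libraries, against 0.27 over all genes. The members also moved together in D2 libraries: the median correlation between pairs of members was 0.48 over the 46 libraries and 0.22 within letters. In D1 libraries it was 0.21, or 0.28 without the 3 libraries. The 150 genes of lowest difference had 0.19 in D2 and 0.35 in D1. These correlations are descriptions over libraries that share depth and letter.

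The letter of the library carried most of this common variation. The mean level of the 150 members in D2 libraries of letter A was 4.33 at the lowest, 4.54 at the median and 4.80 log2 CPM at the highest (4.55 ± 0.14, SD, n = 12). Letter B had 4.36, 4.51 and 4.74 (4.53 ± 0.14, SD, n = 10). Both were higher than letters C and D, with no overlap. Letter C had 3.78, 4.02 and 4.20 log2 CPM (4.01 ± 0.11, SD, n = 12), and letter D had 3.92, 4.06 and 4.15 (4.04 ± 0.07, SD, n = 12). The members' median share of all counts in a D2 library was 1.14% in A, 1.03% in B, 0.653% in C and 0.660% in D. In D1 libraries the letters overlapped throughout: the median levels were 2.99, 2.95, 2.97 and 2.95 log2 CPM for A, B, C and D, and the single E library had 3.24. Depth moved with the letter in D2 libraries, as the totals above show. With the depth of the library as a covariate 112 members (74.7%) and 73.7% of all genes were called for a letter difference, against 129 members (86%) and 85.6% without it, and the part of depth in the level was not otherwise tested.

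**Figure D2:**
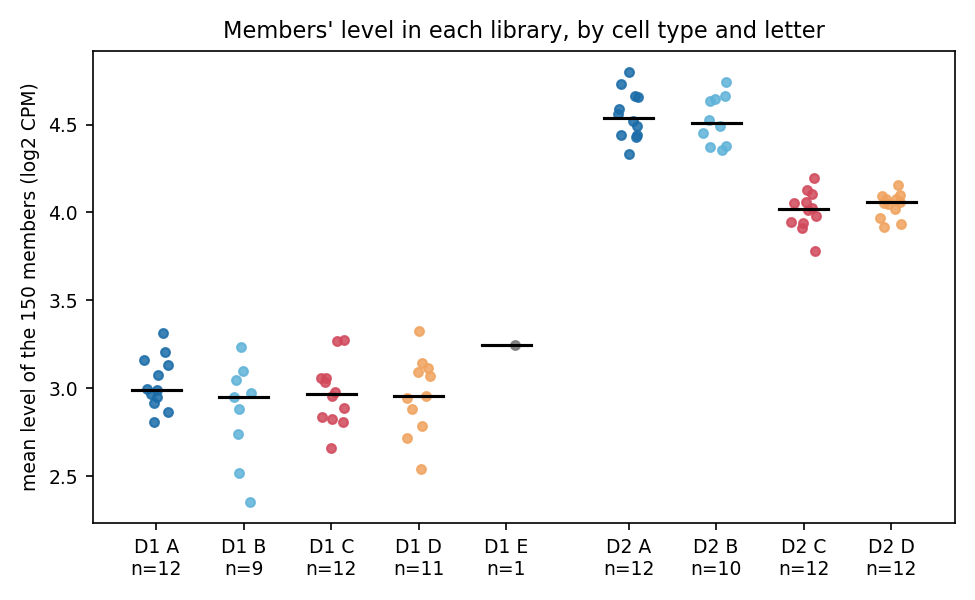
Mean level of the 150 members (log2 CPM) in each library, by cell type and letter. Each point is 1 library and each black bar a median; points are spread sideways at random. D2 libraries of letters A and B lie at 4.33 and above, those of C and D at 4.20 and below, and D1 letters overlap.

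A first principal component of the members over the D2 libraries held 64.5% of their variance, and its scores ran from 1.25 to 7.49 in letters A and B and from -7.32 to -1.04 in C and D. Over all genes with at least 5 CPM the first component held 72.2%, so a dominant axis in D2 libraries was not confined to the members. In D1 libraries the first component held 28.8% for the members and 38.5% over all genes with at least 5 CPM.

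Letter differences in D2 libraries were tested with edgeR's quasi-likelihood F-test (B, C and D against A, Benjamini-Hochberg adjustment over all 14355 genes, threshold 0.05, as for every test here). A letter difference was called in 129 of the 150 members (86%), near the 85.6% of all genes. The direction was less even. 119 members (79.3%) were called and lower in both C and D than in A, against 42.3% of all genes. Another 10 members (6.67%) were called and higher in both, a count for which no share over all genes is at hand. The median difference of C from A was -0.59 on the log2 scale for the members and -0.06 for all genes with at least 5 CPM. For D against A it was -0.56 and -0.06, and for B against A -0.04 and -0.02. The rule used the mean over all D2 libraries, so it could favour genes high in any set of letters, and these counts are no test of the list. By sign alone, called or not, 86% of the members and 53.6% of all genes with at least 5 CPM were lower in C than in A. Among the 150 genes of lowest D2 minus D1 difference, this share was 74%.

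**Figure D3:**
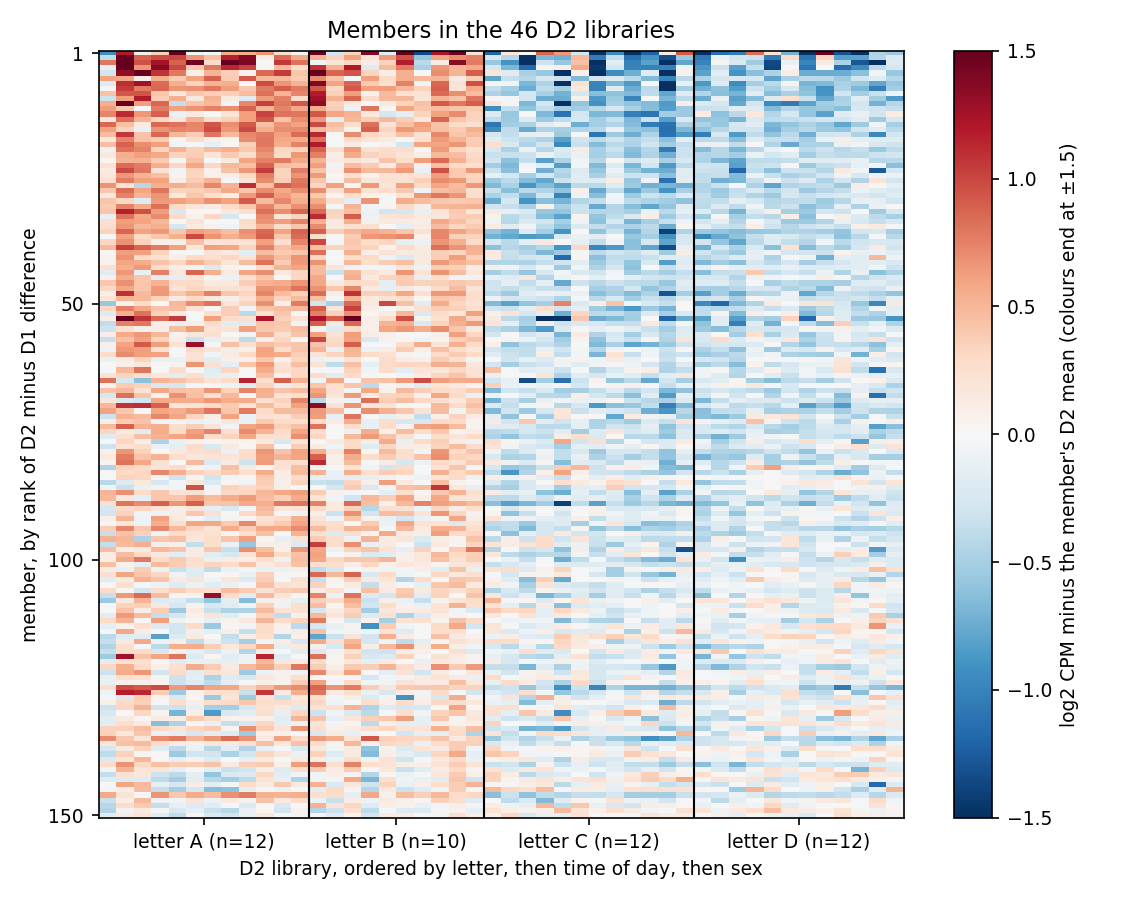
Level of each member (rows, by rank of its D2 minus D1 difference) in the 46 D2 libraries (columns, by letter, then time, then sex), as log2 CPM minus the member's mean over D2 libraries. Red is above and blue below that mean, with the colour range cut at both ends; most rows are red in letters A and B and blue in C and D, least so toward rank 150.

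The size of the letter difference followed the rank. The rank was computed from the same D2 values, so genes high in letters A and B also rank higher, and this trend is a description. Over all genes 42.3% were called lower in both C and D than in A. The 14 members with a D2 minus D1 difference over 2 had a median of -1.14 for C against A, and all 14 were called lower in C and D. The 68 members between 1 and 2 had a median of -0.71, with 65 called lower. The 68 members under 1 had a median of -0.21, with 40 called lower and the 10 called higher. Grouping the members by their co-variation in D2 libraries gave a set of 126 and a set of 24, the latter all between ranks 84 and 150. In the 126 the median of C against A was -0.66, and in the 24 it was 0.13. This grouping was made on the same values and is a description.

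The member of lowest p in the letter test was ENSMUSG00000073411, at rank 125. In D2 libraries its level was 15.0 CPM at the lowest, 19.4 at the median and 24.7 at the highest in letter A, and 14.2, 16.4 and 22.9 in B. In C it was 6.18, 8.20 and 9.99 CPM, and in D 5.93, 9.18 and 11.1, so every A and B library lay above every C and D library. The C difference from A was -1.24 ± 0.07 on the log2 scale (SE, adjusted p for letters = 2.24e-23, edgeR). The D1 medians were 8.10 CPM in A, 7.78 in B, 6.76 in C and 7.36 in D. ENSMUSG00000025608, at rank 94, had D2 medians of 46.6 CPM in A, 45.3 in B, 23.9 in C and 24.2 in D. Its lowest A library had 37.3 CPM and its highest C library 33.4, and its C difference from A was -0.92 ± 0.06 (SE, adjusted p = 2.99e-22, edgeR).

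ENSMUSG00000052305, second in rank, had D2 medians of 61.4 CPM in A, 50.8 in B, 20.7 in C and 25.8 in D, with overlapping ranges. Its C difference from A was -1.495 ± 0.18 (SE, adjusted p = 2.11e-11, edgeR). ENSMUSG00000073940, the first, had a noisier pattern: D2 medians were 23.0 CPM in A, 33.9 in B, 17.0 in C and 10.2 in D, and its C difference was -0.77 ± 0.37 (SE, adjusted p for letters = 0.000735, edgeR). Of the 10 members higher in C and D, ENSMUSG00000032849 at rank 149 had the lowest p. Its D2 medians were 22.5 CPM in A, 21.7 in B, 26.3 in C and 26.9 in D, with overlapping ranges, and its C difference from A was 0.29 ± 0.07 (SE, adjusted p = 1.97e-05, edgeR).

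The gap between cell types depended on the letter but kept its sign. The median D2 minus D1 difference of the members was 1.30 in letter A, 1.41 in B, 0.84 in C and 0.87 in D, and all 150 were higher in D2 in each of the 4 letters. The sign follows largely from the choice of the members. A letter difference that itself differed between D2 and D1 was called in 103 members (68.7%), near the 64.8% of all genes; this test was added after the data were seen. The nearness of these shares depended on the setting. Without letter A 63 members (42%) and 10.1% of all genes were called, and with depth as a covariate 119 members (79.3%) and 47.3% of all genes. By mean CPM, both C and D lay below both A and B in 128 members in D2 libraries and in 43 in D1 libraries. No share over all genes is at hand for these 2 counts, so nothing is read from them about the members.

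Time of day moved few members when the letter was left out of the model. The mean level of the members in D2 libraries was 4.28, 4.25, 4.28, 4.23, 4.29 and 4.30 log2 CPM at ZT 2, 6, 10, 14, 18 and 22, with SDs of 0.25 to 0.36 over 7 or 8 libraries, so no time stood apart. A 24 h rhythm (a cosine and a sine term, averaged over the sexes) was called in 7 of the 150 members in D2 libraries (4.67%), against 2.94% of all genes. Leaving out a letter left 1 member (0.667%) without B or without C, where 0.738% and 0.383% of all genes were called, 3 (2%) without D against 1.19%, and 5 (3.33%) without A against 1.82%. The letters paired the D2 libraries, and with the letter as a block 53 members were called (35.3%), against 22.3% of all genes; the 7 were among them. The amplitude (log2 height of the fitted peak above the mean) had a median of 0.26 in the 7, against 0.17 in all genes called without the block. It was 0.18 in the 53, against 0.13 in all genes called with the block. Over all members, called or not, it was 0.12 with the block, against 0.07 over all genes.

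The 7 members called without the block peaked mostly in the early dark phase, 5 of them between ZT 13.9 and 16.0, and the others at ZT 22.0 and 24.0. ENSMUSG00000029802, at rank 85, had D2 medians of 12.5 CPM at ZT 2, 14.0 at ZT 6, 17.6 at ZT 10, 17.8 at ZT 14, 17.5 at ZT 18 and 17.2 at ZT 22. The highest of its ZT 2 libraries had 14.2 CPM and the lowest of its ZT 10 libraries 15.9, so these times did not overlap. Its amplitude was 0.25 ± 0.04 (SE, adjusted p = 0.00164, edgeR), with a peak at ZT 15.0. The call was lost without letter B (adjusted p = 0.0680), C (0.0667) or D (0.0528). It held no letter difference that passed the test (adjusted p = 0.456). ENSMUSG00000020044, at rank 117, had medians of 30.0 CPM at ZT 2 and ZT 6, 45.99 at ZT 10, 43.9 at ZT 14, 41.5 at ZT 18 and 35.9 at ZT 22. Every ZT 10 library, the lowest at 40.6 CPM, lay above every ZT 6 library, the highest at 39.1. Its amplitude was 0.32 ± 0.06 (SE, adjusted p = 0.00170, edgeR), with a peak at ZT 13.9, and the call was kept without each letter.

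With the letter as a block the member of lowest p was ENSMUSG00000041378, at rank 11. Its D2 medians were 15.5 CPM at ZT 2, 11.4 at ZT 6, 9.76 at ZT 10, 11.4 at ZT 14, 14.8 at ZT 18 and 19.1 at ZT 22, with overlapping ranges. Its amplitude was 0.41 ± 0.05 (SE, adjusted p = 1.52e-06, edgeR with the letter as a block), with a peak at ZT 23.8. Its D2 medians by letter were 21.7 CPM in A, 17.8 in B, 8.96 in C and 9.67 in D, so the letter moved it more than the time.

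The 53 peaks were spread differently from those of all 3198 genes called with the block. 19 members (35.8%) peaked from ZT 0 to 4 and 11 (20.8%) from ZT 20 to 24, against 12.1% and 6.35% of all called genes. 10 members (18.9%) peaked from ZT 12 to 16, against 12.3%. From ZT 4 to 8 and from ZT 16 to 20, where 30.8% and 30.9% of all called genes peaked, the members had 6 each (11.3%). 1 member peaked from ZT 8 to 12. The members are correlated with each other, and the difference between these spreads was not tested.

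**Figure D4:**
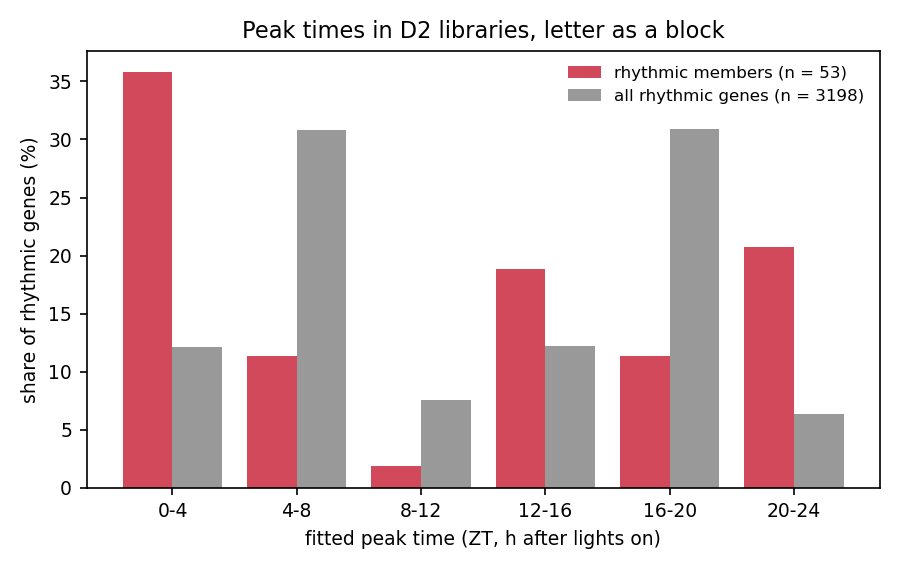
Share of genes called rhythmic in D2 libraries, with the letter as a block, by fitted peak time in bins of 4 h (x, ZT), for the 53 members (red) and all 3198 genes (grey). The members are most frequent from ZT 0 to 4 (35.8%), and all genes from ZT 16 to 20 (30.9%) and from ZT 4 to 8 (30.8%).

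In D1 libraries 5 members were called rhythmic (3.33%), against 0.495% of all genes. Without 3 D1 libraries that stood apart, the male ZT 10 and ZT 22 libraries of letter B and the male ZT 18 library of letter D, 10 were called (6.67%), against 1.23% of all genes. No member was called without letter C, where 0.0906% of all genes were. There was 1 (0.667%) each without A and without D, against 0.153% and 0.125%, and 5 (3.33%) without B against 0.376%. On all D1 libraries, the fit with the letter as a block called 7 members (4.67%), against 1.13% of all genes. The 5 called without the block peaked between ZT 13.7 and 21.0, and 3 of them were also among the 53 of the D2 block fit. ENSMUSG00000052684, at rank 6, had D1 medians of 27.8 CPM at ZT 2, 21.6 at ZT 6, 21.4 at ZT 10, 32.9 at ZT 14, 30.5 at ZT 18 and 33.6 at ZT 22. Every ZT 14 library, the lowest at 28.4 CPM, lay above every ZT 6 library, the highest at 27.6. Its D1 amplitude was 0.37 ± 0.06 (SE, adjusted p = 0.00124, edgeR), and without letter C the adjusted p was 0.0841. In D2 libraries its level was far higher, with medians of 198 CPM at ZT 2 and 261 at ZT 18 and means of 256 and 267 CPM. No rhythm was called for it in D2 libraries, where its amplitude was 0.07. ENSMUSG00000030237, at rank 61, had D1 medians of 23.9 CPM at ZT 2 and 40.6 at ZT 10 and an amplitude of 0.32 ± 0.07 (SE, adjusted p = 0.0316, edgeR). That call was lost without letter A (adjusted p = 0.127), C (0.182) or D (0.344).

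No member was called for a difference in rhythm between D2 and D1 libraries by edgeR, and 0.0139% of all genes were. At an unadjusted p under 0.05 there were 25 members, and DESeq2 called 0. With the letter as a block 1 member (0.667%) and 0.529% of all genes were called, and 0 members with the block and without the 3 D1 libraries. For the other members, the rhythms called in one cell type are not shown to differ from those in the other.

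Males had slightly higher levels than females for most members in D2 libraries. The members' mean level was 4.32 ± 0.28 log2 CPM in males and 4.22 ± 0.28 in females (SD, n = 23 each), a difference smaller than the spread. The median male minus female difference was 0.09 on the log2 scale, against 0.00 for all genes, and 130 members (86.7%) were higher in males, against 50.9% of all genes. Since the members are correlated, this share is a description. No member passed the test without the letter (edgeR), where 0.216% of all genes were called. An unadjusted p under 0.05 was found there in 6 of the 150 members and in 515 of all 14355 genes. DESeq2 called 0 but gave no adjusted p for 133 of the 150 members, so its count says nothing about most of them. With the letter as a block 22 members (14.7%) were higher in males, against 5.01% of all genes, and 0 were higher in females, against 4.44%. Their differences ran from 0.12 to 0.50, and 6 of the 14 members with a D2 minus D1 difference over 2 were among them.

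ENSMUSG00000025608, at rank 94, had the lowest p for sex in the block fit. Its D2 level was 20.4 CPM at the lowest, 25.4 at the median and 48.7 at the highest in females, and 23.0, 33.4 and 53.7 in males, with wide overlap. The difference was 0.19 ± 0.04 (SE, adjusted p = 0.00365, edgeR with the letter as a block), and without the block 0.19 ± 0.14 (SE, adjusted p = 0.926). ENSMUSG00000001930, at rank 44, had 13.7, 17.3 and 32.3 CPM in females and 15.3, 23.3 and 39.0 in males. Its difference was 0.29 ± 0.07 (SE, adjusted p = 0.00490, edgeR with the letter as a block). In D1 libraries it was -0.18 ± 0.11 (SE, adjusted p = 0.418, edgeR).

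In D1 libraries most members leaned the other way. The members' mean level was 2.90 ± 0.21 log2 CPM in males (SD, n = 22) and 3.04 ± 0.19 in females (SD, n = 23). The median male minus female difference was -0.12, against -0.00 for all genes, and 41 members (27.3%) were higher in males, against 48.7% of all genes. Without the 3 D1 libraries that stood apart the median stayed at -0.12, against 0.002 for all genes. There 31 members were higher in males, a count for which no share over all genes is at hand. No member passed the test in D1 without the letter (edgeR), where 0.0418% of all genes were called. An unadjusted p under 0.05 was found there in 27 of the 150 members and in 2223 of all 14355 genes. DESeq2 called 0 but gave no adjusted p for 131 members. Letters paired the D1 libraries less closely than the D2 libraries. Deviations from group means were correlated above 0.1 in 66.8% of 223 same-letter D1 pairs (median 0.20), against all 243 D2 pairs (median 0.72). With the letter as a block, 2 members (1.33%) and 7.26% of all genes were called in D1. Without the 3 libraries as well, the block fit called 0 members and 0.230% of all genes. Without letter B 9 members (6%) and 2.05% of all genes passed. The sex difference itself was not called as differing between D2 and D1 in any member by edgeR, nor in any of all genes (0%). At an unadjusted p under 0.05 there were 27 of the 150 members and 908 of all 14355 genes. DESeq2 called 0 but gave no adjusted p for 147 members. Without letter B 1 member was called, which was also the 1 gene called of all genes.

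**Figure D5:**
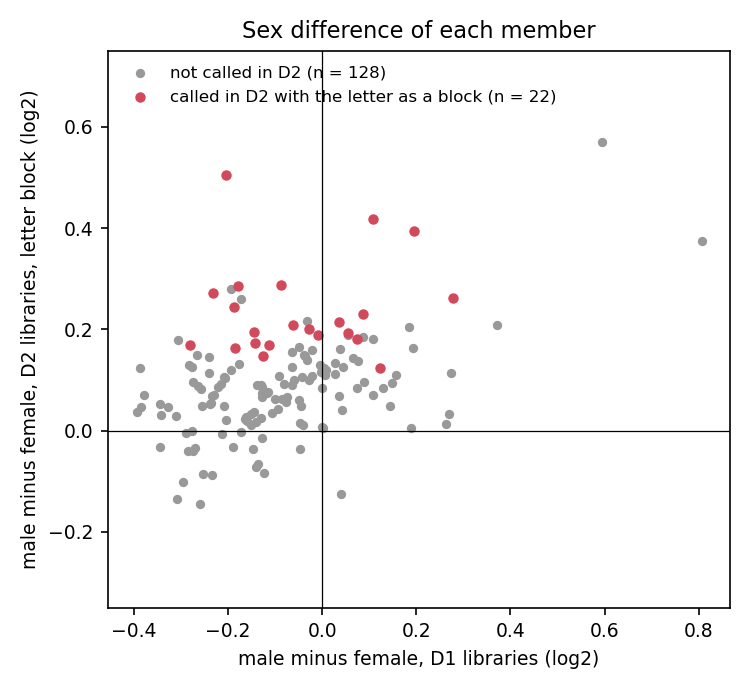
Male minus female difference of each member on the log2 scale in D1 libraries (x) and in D2 libraries with the letter as a block (y), with the 22 members called in D2 in red and the other members in grey. Most points lie above 0 on the y axis (129 of 150) and left of 0 on the x axis.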

How the data were processed

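The authors deposited raw counts per gene for 91 libraries. Per the submitters' processing notes, FastQC 0.11.7, HISAT2 and HTSeq 0.10.0 were used, and the builds GRCm38 and GRCh38 are named without their roles. The deposited file's name states a filter on log CPM; its cut-off was not given in the sources used. The RefSeq table at hand holds 49997 entries, 0 with an Ensembl identifier, so 0 of 14355 genes could be named, no sequence could be matched, and the lists of identity, clock and cell type genes could not be scored. The rule for identified genes took members of largest difference and of lowest p per test, at most 2 in each direction per comparison.

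The members, lists and tests were chosen with earlier results of these data known. Fits used edgeR 4.0.16 in R 4.3.3 (TMM, quasi-likelihood F-test, all 14355 genes), with a mean, cosine and sine (24 h) for each sex. D2, D1 and all 91 libraries were fitted separately. Standard errors of letter and sex differences are the effect divided by the square root of its F. Rhythm amplitudes joined a cosine and a sine term in the same test, and their standard errors do not follow that formula. In D2 libraries all 243 same-letter pairs of libraries from different groups had deviations from their group means correlated above 0.1 (median 0.72, lowest 0.19), so the letter was also fitted as a block. In D1 libraries 66.8% of 223 pairs did. No 2 libraries of a group were copies (lowest chi-square per gene 4.24 over 129 pairs). Alternatives were RLE scaling, DESeq2 1.42.0, a floor on low genes, depth as a covariate, time as a factor, each letter left out and 3 D1 libraries left out. The block without those 3 libraries and the letter difference between cell types were added after the data were seen. The scripts were tested on simulated counts.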

Additional observations from a re-analysis of the deposited data

Results flagged for a closer look

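4 results were singled out. In 43 groups of 4 to 10 libraries looked at, 3 had a library far from the others, and chance alone gives about 1 in 20 groups. The members' mean level was 2.35 log2 CPM in the D1 male ZT 22 library of letter B, below the others of its group; it is 1 of the 3 D1 libraries that stood apart. In the same library ENSMUSG00000052684 had 48.2 CPM, apart from the other D1 libraries of ZT 22, both sexes together. ENSMUSG00000030237 had 61.5 CPM in the D1 female ZT 14 library of letter A, apart from the other D1 libraries of ZT 14, both sexes together. The letter difference differed between D1 and D2 libraries in 103 members (68.7%), by a test of the difference itself, a share near the 64.8% of all genes.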

How the results depend on the processing

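Each count of members is followed by the share of all genes called. In D2 libraries the 7 members with a rhythm (2.94%) became 18 with depth as a covariate (7.5%), 53 with the letter as a replicate block (22.3%) and 3 with time as a factor (0.634%), and ran from 1 (0.383%) to 5 (1.82%) with each letter left out. In D1 libraries the 5 (0.495%) became 10 with DESeq2 (1.5%), 10 with depth (2.19%), 1 with time as a factor (0.181%), 10 without the 3 D1 libraries that stood apart (1.23%) and 11 without them and with the block (2.04%), and ran from 0 (0.0906%) to 5 (0.376%) with each letter left out. The count for sex, 0 in each cell type, became 22 with the block in D2 (9.45%), 2 with the block (7.26%) and 2 with depth (0.0906%) in D1, and ran from 0 to 9 (2.05%) in D1 with each letter left out. The rhythm difference between cell types went from 0 to 1 with the block (0.529%), and the sex difference ran from 0 to 1 (0.00697%) with each letter left out. The letter difference between cell types, 103 members (64.8%), ran from 63 (10.1%) to 99 (69%) with each letter left out. The letter difference in D2 stayed between 112 and 130 members under every alternative run, where from 73.7% to 87.1% of all genes tested were called. Of the 150 members, 62 stayed in the list with a floor of 1 CPM and 86 with a floor of 10 CPM; the lists from males alone and from females alone share 128 genes (85.3% of each). Calls on identified members were followed over the alternatives other than time as a factor and, for letter results, letter A left out. For these 8 results, 60 of 68 alternatives kept the call, 8 lost it and 0 reversed it. The cause was not tested, save that fewer libraries or a longer list of genes enter by construction. Members near 5 CPM rest on few counts in the shallowest libraries, no identifier could be named, and mouse line and cell type cannot be told apart.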
